A study of Mus musculus with 4 samples.

Results

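Poly(A) RNA from mouse lung tumours held low levels of transcripts of T cells, natural killer (NK) cells and B cells, and the 34 genes described here mark these lymphocytes. The genes were chosen by symbol from the deposited expression table. All 34 of 34 were present among its 21420 genes with a usable name. KL25 mice carried Lkb1fl/fl, an allele pair that Cre deletes, and Usp25-/-. KL mice carried Lkb1fl/fl with Usp25 intact, and both groups shared the rest of the KL genotype. Lkb1 (Stk11) is a tumour suppressor kinase and Usp25 a deubiquitinase. Both groups received Ad-Cre, an adenovirus that expresses Cre, through the nose, and tumours were taken 10 weeks later. Each group had 2 libraries, and the series gives 2 mice per group. Tumours were made into cell suspensions and treated with CD45 magnetic beads, and the libraries are labelled CD45-negative tumour cells. The Usp25-/- genotype is not written as a floxed allele. Sources used here give no strain, age or sex of the mice and no promoter for Cre.

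CD45, encoded by Ptprc, is carried by every lymphocyte. T cells recognise peptides on MHC molecules through a receptor that signals through the CD3 chains, with CD4 or CD8 as co-receptor and the kinases Lck and Zap70 downstream. NK cells and cytotoxic T cells kill through perforin and granzymes. B cells bind antigen through surface immunoglobulin, which signals through CD79A and CD79B, and mature into antibody-secreting plasma cells. In lung tumours lymphocytes are the arm of the immune response that checkpoint antibodies act on.

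The libraries contained leukocyte RNA in spite of their label. Levels are FPKM, scaled for gene length and depth, with replicate 1 before replicate 2 in each pair. Ptprc was at 51.0 and 43.3 FPKM in the KL25 pair, against 123 and 46.4 FPKM in the KL pair. Usp25 was at 2.65 and 1.71 FPKM in the KL25 pair, against 38.5 and 16.6 FPKM in the KL pair, so the groups did not overlap at the targeted gene. Its adjusted p in limma was 0.942. The authors' deposited test gave Usp25 a log2 fold change of -3.70 and an adjusted p of 0.0170. KL replicate 1 stood apart, with a correlation across genes of 0.874 to 0.885 with each other library, against 0.933 to 0.967 among the other 3. Relative depth, as size factors, was 0.853 and 0.823 in KL25 and 1.30 and 1.09 in KL. The members rested on few reads. The authors' mean normalized count per library ranged from 2.13 to 680 over the 34 members, with a median of 28.7, and was below 50 for 25 of them. No counts per library were recovered, so no counting interval is given. A level of 0 is reported as listed, because Adnp, a broadly expressed gene, was also listed at 0 in KL replicate 2 and at 7.02 to 11.5 FPKM in the other 3 libraries.

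No tested lymphocyte gene passed the test between KL25 and KL. Of the 34 members 23 passed a filter on low levels (mean FPKM of 1 or more in KL25 or in KL), and 11 did not. The filter fell between Ms4a1, left out at 0.933 FPKM in its higher group, and Cd6, kept at 1.04 FPKM. By limma on log2(FPKM + 1), 0 of 23 members passed an adjusted p of 0.05 (percent of all 12476 genes tested that passed: 0 in each direction). The adjusted p ranged from 0.942 to 0.988. At an unadjusted p below 0.05 the count was also 0 of 23, beside 2.16% of all genes higher and 1.07% lower. For a single gene the smallest two-sided p that an exact permutation of 2 and 2 libraries allows is 0.333.

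The direction was mixed. Log2 fold changes of KL25 over KL were positive for 9 and negative for 14 of the 23 tested members, beside 53.1% positive and 46.9% negative over all genes. Their median was -0.18, beside 0.030 over all genes tested, and standard errors ran from 0.31 to 0.86. Cd4, Cd5, Cd6 and Mzb1 reached the filter in KL only and Cd8b1 in KL25 only, so their direction was tied to the filter. Without a filter the median over members was -0.030. The KL25 pair lay wholly above the KL pair in 2 tested members, Lat and Gzma, which is 8.70% beside 19.1% of all genes. The KL25 pair lay wholly below in 1 tested member, Cd4, which is 4.35% beside 15% of all genes. The other 20 overlapped. The authors' deposited table has 1 of 34 members at an unadjusted p below 0.05, Cd4, where 1.62% of all genes were higher and 2.46% lower at that threshold. At its adjusted p below 0.05 the count was 0 of 34, beside 0.122% of the genes with a value. Leaving out KL25 replicate 1 gave a median over tested members of 0.32, and leaving out KL25 replicate 2 gave -0.56, so its sign turned on those libraries.

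**Figure D1:**
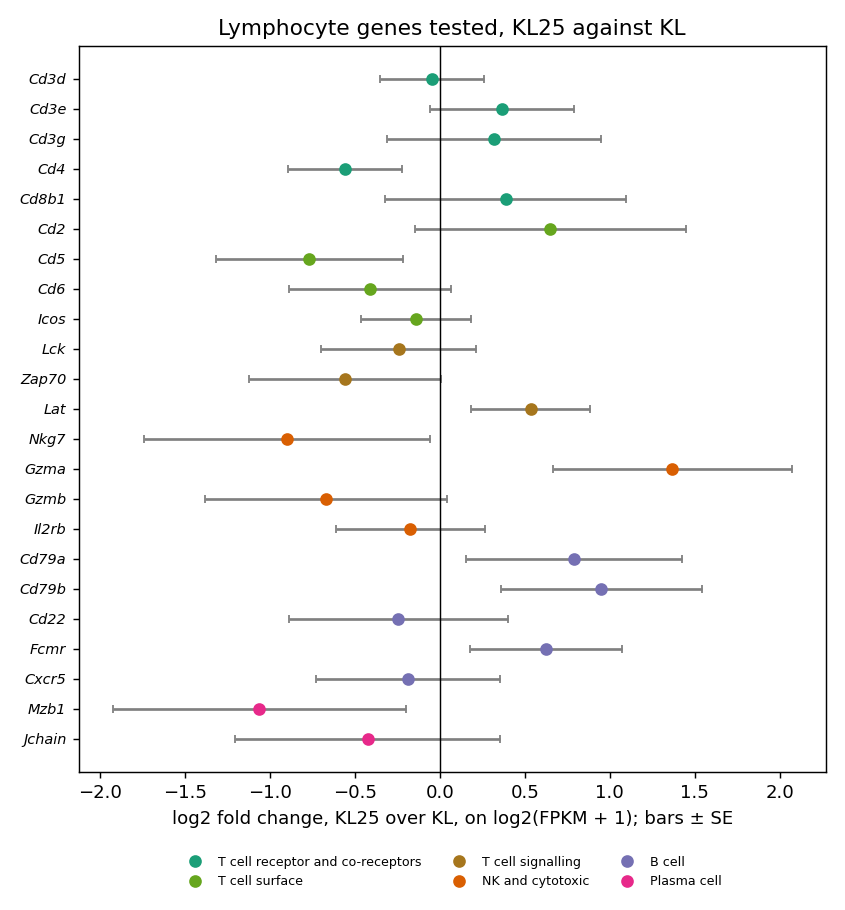
Log2 fold change of KL25 over KL (x axis, on the log2(FPKM + 1) scale) for the 23 lymphocyte genes tested, with bars of 1 standard error from limma and colours by role. Values lie on both sides of 0, from -1.06 for Mzb1 to 1.37 for Gzma, and none passed the test.

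The members separated the 2 KL25 libraries instead. In 33 of 34 members the level was higher in KL25 replicate 2 than in KL25 replicate 1, and Cd4 was the exception. Among tested genes this held for 22 of 23 members, beside 51.1% of all 12476 genes. For genes with a mean below 10 FPKM it held for 19 of 20 members and 55.8% of 7149 genes. KL25 replicate 1 held the highest of the 4 values in 0 of 34 members, whereas it was highest in 25.4% of all genes tested. KL25 replicate 2 was highest in 20 members, KL replicate 2 in 10 and KL replicate 1 in 4. Over all 21420 genes these shares were 15.1%, 19.3% and 42.3%. KL25 replicate 1 was lowest alone in 17 members (50%), beside 18.3% of all 21420 genes. Among tested genes it was lowest alone in 11 of 23 members, beside 24.3%, and below 10 FPKM in 11 of 20, beside 27.85%. It had 7 members listed at 0 (20.6%), close to the 19.9% of all 21420 genes. Among tested genes it had 5 of 23 members at 0, beside 1.61%. KL25 replicate 2 had no member at 0, beside 26.5% of all 21420 genes. Among tested genes it had 0 of 23 members at 0, beside 1.53%, so this count was near the share of tested genes. In 19 of 23 tested members the gap between the KL25 replicates was larger than the difference between the group means on the log2 scale, beside 49.1% of all genes. The median gap between KL25 replicates was 1.05 over tested members and 0.010 over all genes tested. Lymphocyte genes come from the same cells and are not independent of each other, and in bulk RNA fewer lymphocytes and less RNA per lymphocyte cannot be told apart.

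**Figure D2:**
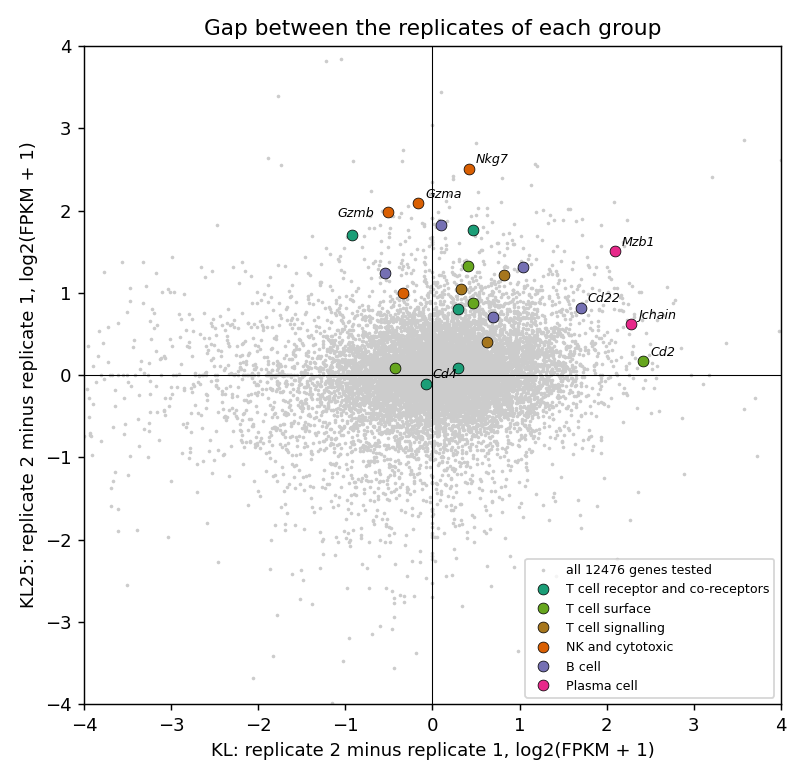
Difference between replicates 2 and 1 within KL25 (y axis) and within KL (x axis), on the log2(FPKM + 1) scale, for the 23 tested lymphocyte genes (coloured by role) over all genes tested (grey, 83 genes beyond 4 on either axis are not drawn). All lymphocyte genes but Cd4 lie above 0 on the y axis, while Cd2, Jchain, Mzb1 and Cd22 lie farthest to the right.

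**Figure D3:**
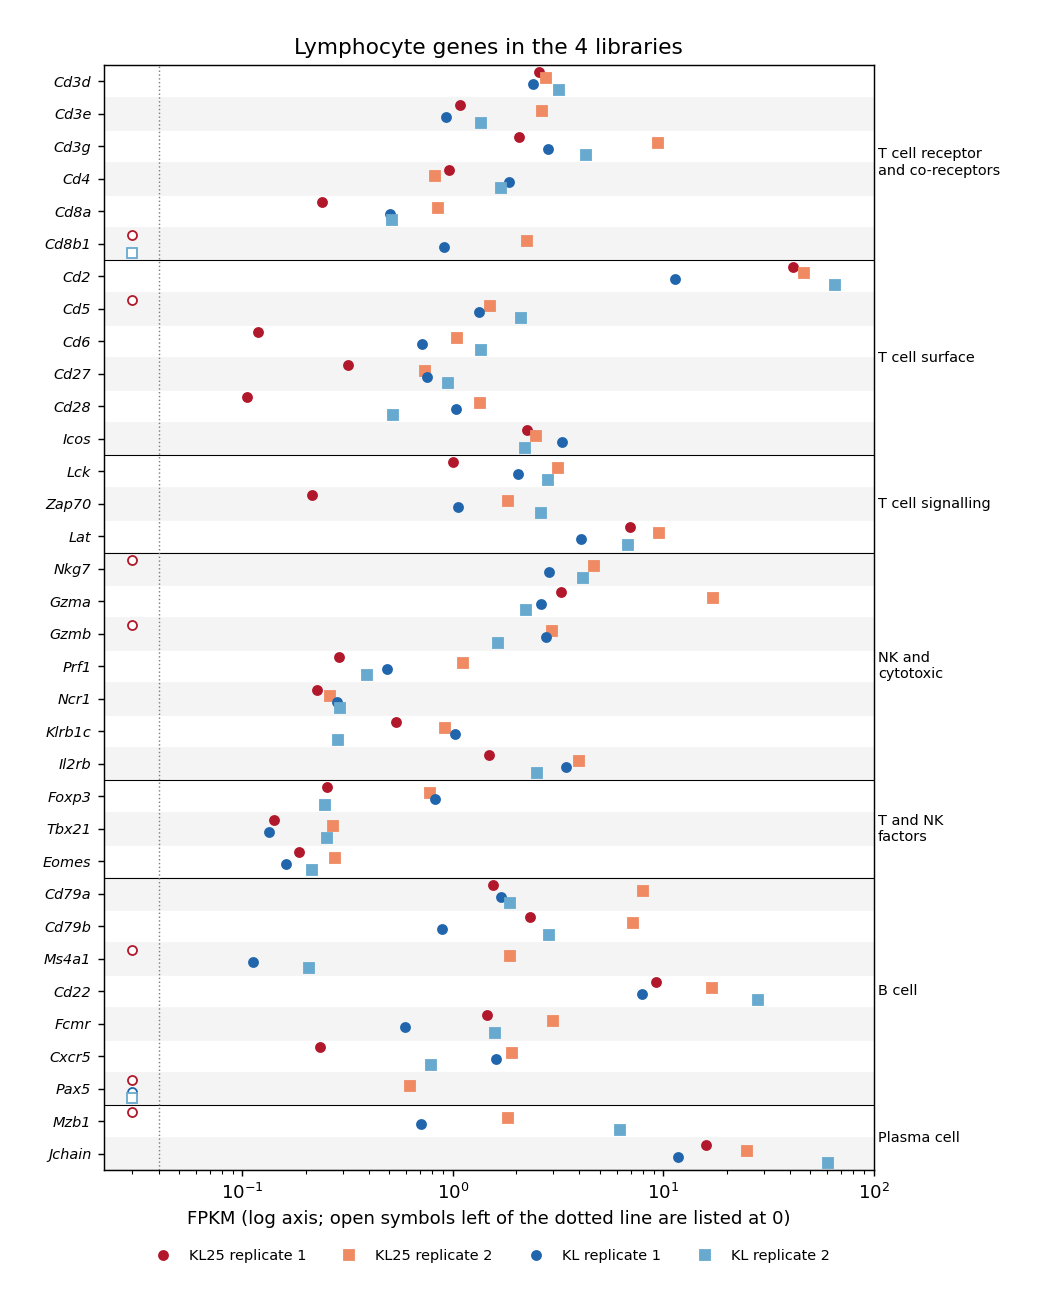
FPKM on a log axis of all 34 members in the 4 libraries, ordered by role, with open symbols for values listed at 0. KL25 replicate 1 is lowest alone in 17 members (18.3% of all genes) and KL25 replicate 2 highest in 20 (15.1% of all genes). Among tested genes the first holds for 47.8% of members and 24.3% of all genes, the second for 56.5% and 17.6%. Cd2, Cd22 and Jchain lie above nearly all other members.

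The CD3 chains, which carry the signal of the T cell receptor, were detected in every library. The 3 genes lie on chromosome 9, and Cd3d and Cd3g start close together on opposite strands (Cd3d at chr9:44981786-44987339, plus; Cd3g at chr9:44969572-44980431, minus; GRCm38). Promoter windows from RefSeq (GRCm38.p6), 250 bases before to 50 after the start, are shown for 4 members that represent the T cell receptor, cytotoxic granules and the B cell receptor. Capitals mark matches on either strand to the letters AGGAAG (an ETS core), TGTGGT (a RUNX core) or TGANTCA (an AP-1 site). The first is Cd3d, chr9:44981536-44981835 on the plus strand.
Cd3d: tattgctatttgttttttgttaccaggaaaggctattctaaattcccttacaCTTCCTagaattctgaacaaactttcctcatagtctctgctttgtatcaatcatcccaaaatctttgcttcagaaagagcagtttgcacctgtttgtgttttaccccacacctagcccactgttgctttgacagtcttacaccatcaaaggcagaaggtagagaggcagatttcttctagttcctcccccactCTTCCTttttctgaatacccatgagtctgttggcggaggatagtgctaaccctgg
Of 28 windows for 23 members, 14 held AGGAAG (50%, beside 35.4% of all 32851 windows), 10 held TGTGGT (35.7%, beside 16.8%) and 1 held TGANTCA (3.57%, beside 7.81%). The octamer ATGCAAAT was in 0 windows, beside 1.74%. Some windows belong to 1 gene and overlap, and a match is a run of letters, not a site shown to be bound.

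Levels of the CD3 genes gave different orders of the libraries. Cd3d was nearly level, at 2.57 and 2.77 FPKM in the KL25 pair and 2.42 and 3.20 FPKM in the KL pair. Cd3e was at 1.08 and 2.64 FPKM in the KL25 pair, against 0.930 and 1.36 FPKM in the KL pair. Cd3g was at 2.06 and 9.41 FPKM in the KL25 pair, against 2.84 and 4.32 FPKM in the KL pair. For Cd3e and Cd3g KL25 replicate 2 was highest, and for all 3 genes the groups overlapped. Their log2 fold changes were -0.047 (SE 0.31), 0.37 (SE 0.42) and 0.32 (SE 0.63) for Cd3d, Cd3e and Cd3g, with adjusted p of 0.988, 0.942 and 0.956. The sign of each turned when 1 library was left out, to 0.10 for Cd3d without KL replicate 2, and to -0.037 and -0.56 for Cd3e and Cd3g without KL25 replicate 2.

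Among the co-receptor genes Cd8a and Cd8b1 were highest in KL25 replicate 2, and Cd4 was lowest there. Cd4, found on helper T cells and in the mouse also on some dendritic cells, was at 0.959 and 0.820 FPKM in the KL25 pair, against 1.86 and 1.70 FPKM in the KL pair. The groups did not overlap, and means were 0.890 ± 0.0980 FPKM in the KL25 pair and 1.78 ± 0.109 FPKM in the KL pair (SD, n = 2 each). The log2 fold change was -0.56 (SE 0.34, adjusted p = 0.942 by limma), and it was -0.61 to -0.50 when any 1 library was left out. Cd4 reached the filter in KL only, so this direction was tied to the filter. The authors' deposited table gives Cd4 a log2 fold change of -1.04 (SE 0.458), an unadjusted p of 0.0232 and an adjusted p of 0.995. Cd8a, the CD8 alpha chain, was at 0.239 and 0.849 FPKM in the KL25 pair and at 0.501 and 0.515 FPKM in the KL pair. Cd8b1, the beta chain of conventional cytotoxic T cells, was listed at 0 in KL25 replicate 1 and was at 2.26 FPKM in KL25 replicate 2. In KL it was at 0.904 FPKM in replicate 1 and listed at 0 in replicate 2. Cd8b1 was thus seen in 1 library of each group, and Cd8a was too low to be tested.

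Cd2, an adhesion receptor of T and NK cells, stood far above the rest of the T cell genes. It was at 41.5 and 46.7 FPKM in the KL25 pair, against 11.4 and 65.4 FPKM in the KL pair, and KL alone spanned both KL25 values. Its log2 fold change was 0.65 (SE 0.80, adjusted p = 0.943), turning to -0.56 without KL replicate 1 and reaching 1.86 without KL replicate 2 (adjusted p = 0.170). Summed over Cd5, Cd6, Cd27, Cd28 and Icos, the other surface genes, the level was 2.80 and 7.11 FPKM in the KL25 pair and 7.16 and 7.13 FPKM in the KL pair. KL25 replicate 1 was therefore low for this sum while the other 3 libraries were nearly equal.

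The single surface genes showed the same low library with 1 exception. Cd5, a scavenger receptor family member that tunes T cell receptor signals, was listed at 0 in KL25 replicate 1 and at 1.503 FPKM in KL25 replicate 2, against 1.34 and 2.10 FPKM in the KL pair. Its relative Cd6 was at 0.119 and 1.04 FPKM in the KL25 pair, against 0.714 and 1.37 FPKM in the KL pair. The costimulatory receptor gene Cd28 was at 0.105 and 1.35 FPKM in the KL25 pair, a 12.9-fold gap between replicates, against 1.04 and 0.518 FPKM in the KL pair. KL25 replicate 1 was the lowest library for each of Cd5, Cd6 and Cd28. Cd27, a costimulatory receptor of the TNF receptor family, was lower in both KL25 libraries, at 0.317 and 0.736 FPKM, against 0.751 and 0.945 FPKM in the KL pair, and was too low to be tested. Icos, induced on activated T cells, was at 2.26 and 2.48 FPKM in the KL25 pair and 3.32 and 2.20 FPKM in the KL pair, with little gap between the KL25 replicates.

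Among the signalling genes, the adaptor Lat was higher in both KL25 libraries, at 6.95 and 9.51 FPKM, against 4.08 and 6.83 FPKM in the KL pair. The nearest values of the groups differed little, and the log2 fold change of 0.53 (SE 0.35) did not pass (adjusted p = 0.942). Platelets and mast cells also use Lat. Of 5 measured mast cell and basophil genes, Mcpt8, a basophil protease gene, was at 164 and 55.8 FPKM in the KL25 pair, against 41.1 and 17.8 FPKM in the KL pair, and made up most of their sum of 168 and 61.5 FPKM, against 48.4 and 24.1 FPKM. Kit, the receptor that mast cells depend on, was at 3.98 and 4.92 FPKM in the KL25 pair, against 5.85 and 5.55 FPKM in the KL pair. Mcpt4, a mast cell protease gene, was listed at 0 and at 0.292 FPKM in the KL25 pair, against 0.934 and 0.803 FPKM in the KL pair. Mcpt8 was thus higher in both KL25 libraries and the other 2 named genes lower, and their part in the Lat levels was not tested. The kinase Lck was at 1.00 and 3.15 FPKM in the KL25 pair and 2.04 and 2.82 FPKM in the KL pair. The kinase Zap70 was at 0.214 and 1.82 FPKM in the KL25 pair, an 8.53-fold gap, and at 1.05 and 2.62 FPKM in the KL pair. For both kinases KL25 replicate 1 was the lowest library and the groups overlapped. Neither passed (adjusted p = 0.956 for Lck and 0.942 for Zap70), and both signs turned positive without KL25 replicate 1.

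The summed level of the NK and cytotoxic genes was low in KL25 replicate 1 and high in KL25 replicate 2, with gaps of different size among the genes. Gzma and Gzmb encode granzymes, the proteases that NK cells and cytotoxic T cells deliver into target cells. Their promoters lie at chr13:113100932-113101231 and chr14:56262285-56262584, both on the minus strand, and are shown because the pair differed in KL25 replicate 1.
Gzma: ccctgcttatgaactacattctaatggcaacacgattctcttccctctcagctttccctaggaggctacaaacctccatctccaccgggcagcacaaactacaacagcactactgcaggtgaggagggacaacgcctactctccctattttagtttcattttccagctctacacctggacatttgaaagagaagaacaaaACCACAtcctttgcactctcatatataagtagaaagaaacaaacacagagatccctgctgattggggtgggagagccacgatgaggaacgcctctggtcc
Gzmb: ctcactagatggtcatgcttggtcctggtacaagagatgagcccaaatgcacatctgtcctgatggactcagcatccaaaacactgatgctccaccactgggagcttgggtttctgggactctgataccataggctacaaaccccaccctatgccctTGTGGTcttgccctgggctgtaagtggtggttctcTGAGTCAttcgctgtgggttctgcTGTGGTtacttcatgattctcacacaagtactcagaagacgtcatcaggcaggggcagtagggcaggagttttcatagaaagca
The Gzma window holds 1 match to TGTGGT, and the Gzmb window holds 2 with 1 match to TGANTCA. Gzma was at 3.28 and 17.2 FPKM in the KL25 pair, against 2.63 and 2.23 FPKM in the KL pair, with no overlap between the groups. The higher mean rested largely on KL25 replicate 2, 5.25-fold above replicate 1. Means were 10.2 ± 9.85 FPKM in the KL25 pair and 2.43 ± 0.281 FPKM in the KL pair (SD, n = 2 each). The log2 fold change was 1.37 (SE 0.70, adjusted p = 0.942), with 2.41 without KL25 replicate 1 and 0.32 without KL25 replicate 2. Gzmb was listed at 0 in KL25 replicate 1 and was at 2.95 FPKM in KL25 replicate 2, against 2.77 and 1.64 FPKM in the KL pair.

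Nkg7, a cytotoxic granule membrane protein, repeated the Gzmb pattern, listed at 0 in KL25 replicate 1 and at 4.69 FPKM in KL25 replicate 2, against 2.85 and 4.15 FPKM in the KL pair. Without KL25 replicate 2 its log2 fold change was -2.16, and without KL25 replicate 1 it was 0.35, while the value over all 4 libraries was -0.90 (SE 0.84, adjusted p = 0.942). Prf1, which encodes the pore-forming perforin, was at 0.287 and 1.12 FPKM in the KL25 pair and 0.489 and 0.393 FPKM in the KL pair. Il2rb, the beta chain shared by the IL-2 and IL-15 receptors, was at 1.48 and 3.96 FPKM in the KL25 pair and 3.46 and 2.52 FPKM in the KL pair. KL25 replicate 1 was lowest and KL25 replicate 2 highest for all of Gzmb, Nkg7, Prf1 and Il2rb. The NK cell receptor gene Ncr1 was lower in both KL25 libraries, at 0.226 and 0.262 FPKM, against 0.281 and 0.292 FPKM in the KL pair, a narrow range at a mean normalized count of 5.11. Klrb1c, which encodes the NK1.1 antigen in strains that carry it, was at 0.540 and 0.919 FPKM in the KL25 pair and 1.03 and 0.284 FPKM in the KL pair. Summed over the 7 NK and cytotoxic genes, the level was 5.81 and 31.1 FPKM in the KL25 pair, against 13.5 and 11.5 FPKM in the KL pair. The KL pair lay between the KL25 pair.

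The lineage transcription factors were too low to be tested. Foxp3, which defines regulatory T cells, was at 0.254 and 0.783 FPKM in the KL25 pair and 0.825 and 0.248 FPKM in the KL pair, so each group held 1 low and 1 high library. Tbx21, which encodes T-bet of type 1 T cells and NK cells, was at 0.141 and 0.268 FPKM in the KL25 pair, against 0.133 and 0.253 FPKM in the KL pair. Eomes, its relative in NK and memory CD8 T cells, was at 0.186 and 0.276 FPKM in the KL25 pair and 0.162 and 0.214 FPKM in the KL pair. Within each of these 2 genes the higher library of each group was its replicate 2, and the groups overlapped.

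**Figure D4:**
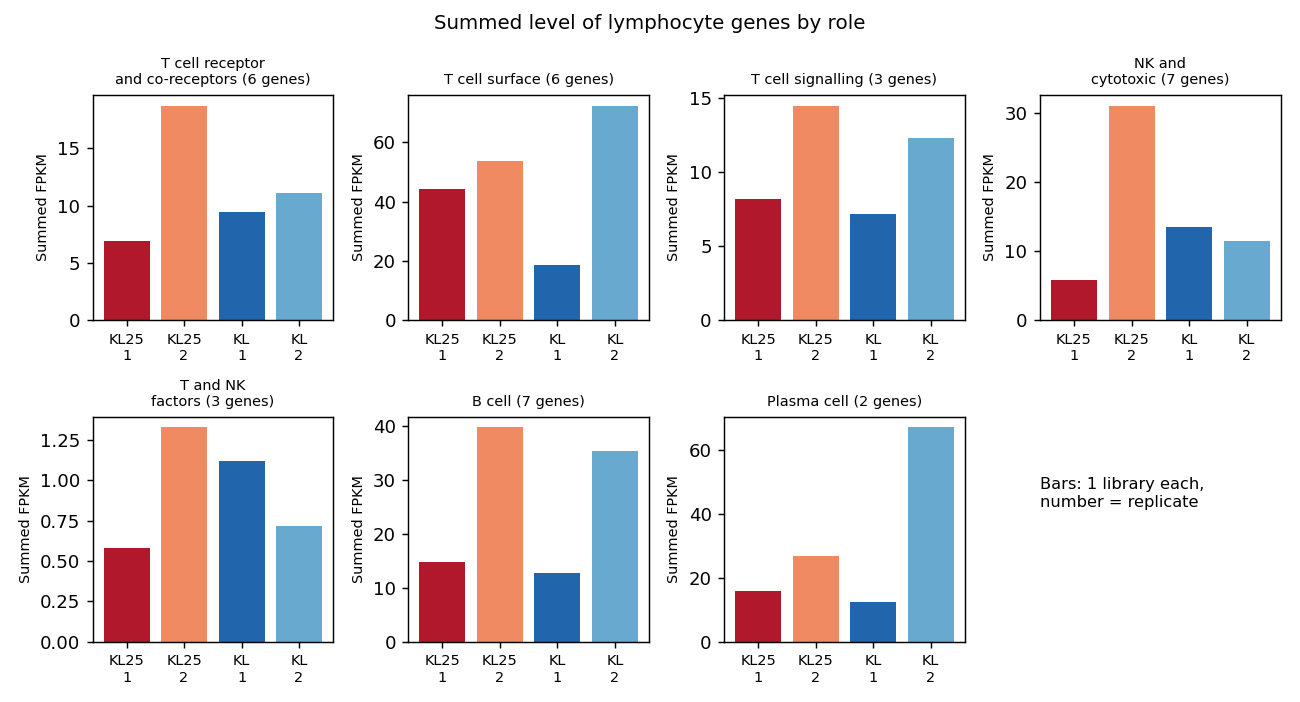
Summed FPKM of the members of each of 7 roles, 1 bar per library, on axes that start at 0 and differ between panels. KL25 replicate 2 has the tallest bar for 5 roles, including 31.1 FPKM for NK and cytotoxic genes, and KL replicate 2 has it for T cell surface genes (72.5 FPKM) and plasma cell genes (67.2 FPKM).

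The B cell receptor genes were highest in KL25 replicate 2. The promoter of Cd79a, the receptor's alpha signalling chain, lies at chr7:24897247-24897546 on the plus strand and holds 1 match to AGGAAG.
Cd79a: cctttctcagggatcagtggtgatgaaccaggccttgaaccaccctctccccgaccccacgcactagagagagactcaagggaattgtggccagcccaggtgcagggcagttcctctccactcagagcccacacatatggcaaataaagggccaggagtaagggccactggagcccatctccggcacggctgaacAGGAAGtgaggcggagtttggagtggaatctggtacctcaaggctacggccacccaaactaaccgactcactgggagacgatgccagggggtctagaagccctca
Cd79a was at 1.56 and 8.06 FPKM in the KL25 pair, against 1.70 and 1.88 FPKM in the KL pair. Cd79b, the beta chain, was at 2.32 and 7.21 FPKM in the KL25 pair, against 0.885 and 2.86 FPKM in the KL pair. In both genes KL25 replicate 2 stood above the other 3 libraries, and KL25 replicate 1 lay within or below the KL range. The log2 fold changes were 0.79 (SE 0.64) for Cd79a and 0.95 (SE 0.59) for Cd79b, each with an adjusted p of 0.942. Without KL25 replicate 2 they were -0.12 and 0.30. Summed over the B cell genes other than Cd22, the level was 5.56 and 22.7 FPKM in the KL25 pair, against 4.89 and 7.33 FPKM in the KL pair.

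The other B cell genes had the same high library, except Cd22. Ms4a1, which encodes CD20, was listed at 0 in KL25 replicate 1 and was at 1.87 FPKM in KL25 replicate 2, against 0.112 and 0.208 FPKM in the KL pair. Pax5, the transcription factor that commits cells to the B lineage, was at 0.629 FPKM in KL25 replicate 2 and listed at 0 in the other 3 libraries, at a mean normalized count of 2.13. Neither gene was high enough to be tested. Fcmr, a receptor for IgM, was at 1.45 and 2.998 FPKM in the KL25 pair and 0.594 and 1.59 FPKM in the KL pair. Cxcr5, the receptor that draws B cells and follicular helper T cells into follicles, was at 0.234 and 1.91 FPKM in the KL25 pair and 1.60 and 0.788 FPKM in the KL pair. Each of these 4 genes had its highest value in KL25 replicate 2. Cd22, an inhibitory co-receptor of B cells, was at 9.24 and 17.1 FPKM in the KL25 pair, against 7.93 and 28.1 FPKM in the KL pair, with its highest value in KL replicate 2.

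Both plasma cell members were highest in KL replicate 2, whereas 0 of the 6 further plasma cell genes were. Jchain, which joins the units of polymeric IgA and IgM, was at 15.9 and 24.9 FPKM in the KL25 pair, against 11.8 and 60.9 FPKM in the KL pair. Mzb1, an endoplasmic reticulum protein of antibody-secreting and marginal zone B cells, was listed at 0 in KL25 replicate 1 and was at 1.83 FPKM in KL25 replicate 2, against 0.703 and 6.27 FPKM in the KL pair. The log2 fold changes were -0.43 (SE 0.78, adjusted p = 0.954) for Jchain and -1.06 (SE 0.86, adjusted p = 0.942) for Mzb1. For Jchain the sign turned to 0.71 without KL replicate 2, and the change was -1.56 without KL replicate 1. Immunoglobulin genes of the list fixed for plasma cells (Ighm, Igha, Igkc and Iglc1) were not analysed here.

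Cd2, Cd22 and Jchain, singled out after their values were seen, carried much of the summed level and ordered the libraries in their own way. Together they reached 66.7 and 88.8 FPKM in the KL25 pair, against 31.1 and 154 FPKM in the KL pair. The other 31 members summed to 29.8 and 97.3 FPKM in the KL25 pair, against 44.0 and 56.3 FPKM in the KL pair. KL replicate 2 was thus highest for these 3 genes and KL25 replicate 2 for the sum of the rest. Plasmacytoid dendritic cells also express Jchain and Cd22, and their marker Siglech was listed at 0 in KL25 replicate 1 and KL replicate 2 and was at 0.160 FPKM in KL25 replicate 2 and 0.643 FPKM in KL replicate 1. Which cells gave the Cd2, Cd22 and Jchain reads was not tested.

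Related genes outside the 34 gave no passing result either. Of 18 further genes of T cell receptor signalling 12 were tested and 0 passed, with 11 negative log2 fold changes and a median of -0.35. At an unadjusted p below 0.05 in limma the count was 0 in this list. It was also 0 in the further lists for T cell identity, NK and cytotoxic cells and plasma cells. The authors' deposited test had an unadjusted p below 0.05 for Trat1 (0.0124, higher in KL25) and Prkcq (0.0419, lower), both of T cell receptor signalling. Cd96 of T cell identity (0.0128) and Ifng (0.0105) were below it too, both lower in KL25. Over all genes 1.62% were higher and 2.46% lower at that threshold. Lcp2, Vav1 and Fyb, among the signalling genes with the highest mean, are also used by myeloid cells or B cells. Fyb, an adaptor, was at 3.44 and 4.67 FPKM in the KL25 pair, against 36.7 and 4.36 FPKM in the KL pair, and Lcp2, the SLP-76 adaptor, at 26.1 and 30.3 FPKM, against 98.8 and 39.9 FPKM. The high value of both lay in KL replicate 1. Of 12 further genes of T cell identity 8 were tested, 0 passed and the median was -0.17, turning to 0.39 without KL25 replicate 1 and to 0.096 without KL replicate 1.

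Of 13 further NK and cytotoxic genes 6 were tested, 0 passed and the median was -0.77, ranging from -1.44 without KL25 replicate 2 to -0.28 without KL25 replicate 1. Log2 fold changes were positive for 1 and negative for 5 of those tested. Ifng, which encodes interferon gamma, had a listed level of 0 throughout KL25 and was at 8.36 and 0.456 FPKM in the KL pair. Ccl5, a chemokine of cytotoxic cells, was at 6.35 and 13.3 FPKM in the KL25 pair, against 31.1 and 10.9 FPKM in the KL pair. KL replicate 1 again held the high value. Klrc1, an NK cell receptor gene, went another way, at 7.75 and 1.14 FPKM in the KL25 pair, against 2.46 and 0.784 FPKM in the KL pair. Its highest value lay in KL25 replicate 1, and the groups overlapped. Ctsw, a cathepsin of cytotoxic cells, followed Nkg7, listed at 0 in KL25 replicate 1 and at 3.09 FPKM in KL25 replicate 2, against 1.70 and 2.87 FPKM in the KL pair. Of 16 further B cell genes 8 were tested, 0 passed and the median was 0.067. At an unadjusted p below 0.05 there were 2 of these 8, beside 2.16% of all genes higher and 1.07% lower. The members at the highest levels went opposite ways. Ly6d, a surface protein of early B cells that epithelia also make, was at 337 and 69.7 FPKM in the KL25 pair, against 38.1 and 32.3 FPKM in the KL pair. Cd37, a tetraspanin of B cells and other leukocytes, was at 23.3 and 34.9 FPKM in the KL25 pair, against 63.9 and 52.0 FPKM in the KL pair. Blnk, an adaptor of B cell receptor signalling, was at 1.93 and 6.68 FPKM in the KL25 pair, against 2.32 and 3.95 FPKM in the KL pair. Of 6 further plasma cell genes 5 were tested, 0 passed and the median was -0.050, turning to 0.14 without KL25 replicate 2 and to 0.21 without KL replicate 1. Of these Sdc1 and Xbp1, at 55.4 to 131 FPKM and 85.8 to 124 FPKM over the libraries, are also expressed by secretory epithelium.

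Markers of other cells also differed between the libraries, and not all in the direction of the lymphocyte members. The 8 epithelial markers were all lower in KL25 replicate 2 than in KL25 replicate 1, with summed levels of 3620 and 1346 FPKM in the KL25 pair, and 935 and 785 FPKM in the KL pair. All 6 endothelial markers went the other way, with sums of 74.3 and 140 FPKM in the KL25 pair, against 83.5 and 201 FPKM in the KL pair. All 6 fibroblast markers did too, with sums of 43.8 and 118 FPKM in the KL25 pair, against 47.5 and 51.9 FPKM in the KL pair. The 12 pan-leukocyte genes summed to 1894 and 2155 FPKM in the KL25 pair, against 3505 and 2711 FPKM in the KL pair, and 10 macrophage genes to 1301 and 1124 FPKM, against 1130 and 1829 FPKM. The 7 measured neutrophil genes summed to 39995 FPKM in KL replicate 1 and to 695 to 1971 FPKM in the other 3 libraries. KL replicate 1 alone stood out for neutrophil genes. Within KL25 the neutrophil sum was lower in replicate 2, at 1971 and 1161 FPKM in the pair, and so was the macrophage sum. The 7 measured innate lymphoid cell genes summed to 882 and 287 FPKM in the KL25 pair, against 185 and 209 FPKM in the KL pair. Most of that sum was Areg, and 4 of the 7 were higher in KL25 replicate 2 than in replicate 1. The 8 dendritic cell genes, all higher in KL25 replicate 2 than in replicate 1, summed to 5.88 and 15.0 FPKM in the KL25 pair, against 9.29 and 9.14 FPKM in the KL pair. KL25 replicate 1 thus had the lowest summed level for dendritic, endothelial, fibroblast and pan-leukocyte genes and the highest for epithelial, innate lymphoid and mast cell and basophil genes. Its sum was also highest for the further B cell genes (382 FPKM, of which Ly6d 337 FPKM) and the further plasma cell genes (246 FPKM). KL25 replicate 2 was nonetheless above replicate 1 in 14 of those 16 B cell genes, but in 1 of the 6 plasma cell genes. For the further T cell signalling, T cell identity and NK and cytotoxic genes the sum was lowest in KL25 replicate 1. KL25 replicate 1 was not the lowest for macrophage or neutrophil genes. For 17 of 34 lymphocyte members it was lowest alone, beside 18.3% of all genes. Not every gene of those lists followed its sum, and the median over fibroblast genes was 6.17 and 13.7 FPKM in the KL25 pair, against 3.59 and 5.15 FPKM in the KL pair. The part of cell make-up in the lymphocyte differences was not tested.

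Set against Ptprc, the lymphocyte genes remained low in KL25 replicate 1 and were lower still in KL replicate 1. The second came from the divisor, as Ptprc, a pan-leukocyte gene, was at 123 FPKM in KL replicate 1 and 51.0 FPKM in KL25 replicate 1. Before division the 31 members below were higher in KL replicate 1, at 44.0 FPKM against 29.8 FPKM. The part of other leukocytes in the ratio was not tested. The 31 members other than Cd2, Cd22 and Jchain summed to 58.4 and 225 FPKM per 100 FPKM of Ptprc in KL25, against 35.9 and 121 FPKM in the KL pair. The 6 T cell receptor and co-receptor genes gave 13.5 and 43.3 FPKM per 100 FPKM of Ptprc in KL25, against 7.71 and 23.9 FPKM in the KL pair. In both groups replicate 2 was the higher library by this measure, and the groups overlapped.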

How the data were processed

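Poly(A) RNA of 2 KL25 and 2 KL tumour cell preparations was sequenced with a strand-specific kit. Per the labels' protocols, cutadapt was used for trimming, GRCm38 for alignment and HTSeq for counts per gene. No aligner, version or strand setting is named in the labels. Both GRCm38 and GRCm39 stand in the submitters' processing notes. The authors' deposited values per library were taken to be FPKM from their size (not whole, summing to 526632 to 565613), as their header names no unit. Per the file headers, the same table gives the mean signal over libraries in normalized counts, the authors' log2 fold change and its error, the test's score, and p-values before and after adjustment. A second table repeated all 21445 rows, and 25 rows whose names had become dates (0.117% of the FPKM) were left out. A table with only a title was not used.

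Size factors were read from genes seen in 1 library, whose mean normalized counts were whole multiples of a step (100% within 0.01). For 10652 genes above 0 in every library with a mean normalized count above 50, fold changes from FPKM agreed within 0.1 (log2, after a median offset of 0.037) with the authors' deposited ones in 98.2%.

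KL25 was tested against KL on log2(FPKM + 1) with limma 3.58.1 under R 4.3.3, using a trend of variance on level and no covariates, for genes whose mean reached 1 FPKM in KL25 or KL. P-values were adjusted by Benjamini-Hochberg over all genes, and the threshold was 0.05. The pseudocount of 1 shrinks fold changes of low genes. The fit was checked on simulated data whose base levels were set above those of every member (highest mean 41.3 FPKM). That check does not cover the fit at the members' levels. Nothing in the labels pairs the replicates. The p-values measure only the spread between these libraries. All members are named. Of each further list up to 4 genes with the highest mean FPKM were eligible. Siglech, Adnp, Trat1, Prkcq and Cd96 were named besides, after their values were seen. The members and lists were chosen with earlier results of these data known. Coordinates are from GENCODE M21 (GRCm38), matched by symbol, and promoters from RefSeq, which matched 23 of 34 members. Alternatives covered the pseudocount, filter, scaling, trend, leaving out each library, and the replicate number as a block. Some genes and 1 allele of both groups are not reported here.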

Additional observations from a re-analysis of the deposited data

How the results depend on the processing

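Over all genes and over the members, 0 passed the adjusted threshold of 0.05 in limma under every alternative run. Counts over all genes at an unadjusted p below 0.05 were 269 higher and 134 lower in KL25. They were 172 higher and 78 lower with the filter at 5 FPKM, and 258 lower without a filter. Leaving out 1 library gave 90 to 1244 higher and 46 to 1291 lower, and 1 to 3 members at that threshold. These were Gzma and Cd79a without KL25 replicate 1, Cd5, Gzmb and Nkg7 without KL25 replicate 2, Jchain without KL replicate 1 and Cd2 without KL replicate 2. Where 1 library is left in a group, it is assumed to vary like the other group.

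Across the genes tested, the gap between replicates in KL25 and that in KL had a correlation of 0.152. Nothing in the labels pairs same-numbered replicates. With the replicate block, 252 genes were lower at an unadjusted p below 0.05 and 3 members (Gzma, Cd79b and Mzb1) reached it, with an adjusted p of 0.958 each.

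The median log2 fold change of the tested members, -0.18, was 0.43 with the filter at 5 FPKM, which leaves few members, and -0.56 to 0.32 when 1 library was left out. The T cell surface median, -0.28, was -0.66 with a pseudocount of 0.1. With the same pseudocount the median of further NK and cytotoxic genes, -0.77, was -1.88, and with the filter at 5 FPKM that of further T cell signalling genes, -0.35, was -0.87. Leaving out 1 library gave medians of -0.46 to 0.77 for T cell receptor, -0.60 to -0.037 for T cell surface, -0.77 to 0.28 for T cell signalling, -1.17 to 0.34 for NK and cytotoxic and -0.12 to 0.98 for B cell members, and -0.65 to 0.51 for further B cell, -0.78 to 0.39 for T cell identity, -1.44 to -0.28 for further NK and cytotoxic and -0.25 to 0.21 for further plasma cell genes.

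No single member changed sign under the 9 alternatives that kept all libraries. When 1 library was left out 16 of 23 did. Their log2 fold changes ranged from -0.20 to 0.10 for Cd3d, -0.037 to 0.77 for Cd3e, -0.56 to 1.20 for Cd3g, -0.46 to 1.24 for Cd8b1, -0.56 to 1.86 for Cd2, -0.85 to 0.021 for Cd6, -0.36 to 0.077 for Icos, -0.77 to 0.28 for Lck, -1.17 to 0.049 for Zap70, -2.16 to 0.35 for Nkg7, -1.66 to 0.32 for Gzmb, -0.68 to 0.32 for Il2rb, -0.12 to 1.70 for Cd79a, -1.10 to 0.61 for Cd22, -0.81 to 0.43 for Cxcr5 and -1.56 to 0.71 for Jchain. The 7 that kept their sign ranged from -0.61 to -0.50 for Cd4, -1.43 to -0.11 for Cd5, 0.22 to 0.85 for Lat, 0.32 to 2.41 for Gzma, 0.30 to 1.60 for Cd79b, 0.27 to 0.98 for Fcmr and -2.11 to -0.017 for Mzb1. Of these Cd4, Cd5 and Mzb1 reached the filter in KL only, and each leave-one-out fit kept the same genes. Their negative sign was therefore tied to the filter.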
